A study of Mus musculus with 6 samples.

Results

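The Hox genes of the 4 mouse clusters were followed over 6 arrays on the way from epiblast stem cells to oligodendrocytes. A gene was taken where a row of the array annotation carried its symbol alone, Hoxa, Hoxb, Hoxc or Hoxd with a number, and the row of highest mean stood for a gene with several rows. This gave 37 Hox genes among 19938 genes tested in all. There were 10 genes of the Hoxa cluster and 9 each of the Hoxb, Hoxc and Hoxd clusters. Hoxb8 was measured only by a row it shares with Hoxb7 and is not among the 37.

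All arrays carried RNA from cultured mouse cells of strain 129. Undifferentiated epiblast stem cells (EpiSCs), pluripotent cells kept in knockout serum replacement with FGF2, gave 1 array. Patterned neural rosettes at day 5, labelled as ventral neural tube, gave 1 array; they were made from EpiSCs with SB431542, Dorsomorphin and Noggin, which block the TGF-beta and BMP pathways, and with retinoic acid (RA) and sonic hedgehog (SHH). Oligodendrocyte progenitor cells (OPCs), grown from dissociated rosettes in N2B27 medium with FGF2, PDGF-AA and SHH, gave 2 arrays, at passage 3 and at passage 11. Oligodendrocytes, made from OPCs with thyroid hormone and without FGF2 and PDGF-AA, gave 2 arrays at the same passages. The labels name no separate cultures beyond the passages, so the p-values measure the spread between these arrays. For tests between cell types that is the spread between passage 3 and passage 11 within OPCs and within oligodendrocytes. It is lent to the lone EpiSC and rosette arrays. The number of arrays limits the precision.

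Hox genes encode homeodomain transcription factors that give cells along the head-to-tail axis their position. Each cluster is ordered: genes of low paralog group number lie at its 3′ end and are switched on early and far forward, in the hindbrain, while higher numbers follow later and further back, in the spinal cord and tail. Retinoic acid is a known inducer of the 3′ genes in neural tissue, FGF, Wnt, Cdx and Gdf11 signals are known for the 5′ genes, and Polycomb proteins keep silent clusters closed. Genes of the same number in different clusters are called paralogs.

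Markers of EpiSCs, OPCs and oligodendrocytes averaged highest in the cells of that label. The OPC average was only a little lower in oligodendrocytes, though, at 11.76 and 11.77 there and 11.97 and 12.14 in OPCs. By limma 0 of 5 OPC markers were lower, against 0.0502% of all genes. At passage 3 and passage 11, Cspg4 (-0.71 and -0.88), Pdgfra (-0.26 and -0.96) and Ptprz1 (-0.33 and -0.73) were lower in oligodendrocytes. Sox10 was higher (0.67 and 0.66), and Olig1 differed by -0.41 and 0.08. The astrocyte markers Gfap and Aqp4 stood at 10.50 and 9.89 on the passage 3 oligodendrocyte array, against 8.11 and 8.27 on the passage 3 OPC array. The other astrocyte markers listed were lower on that oligodendrocyte array than on that OPC array: Aldh1l1 (-0.54), Slc1a3 (-0.58) and Aldoc (-0.78). The 5 EpiSC markers averaged 12.90 on the EpiSC array and 7.89 to 8.29 on the others, 5 of 5 OPC markers rose in OPCs against the rosettes and 4 of 4 measured oligodendrocyte markers rose in oligodendrocytes against OPCs (limma, adjusted p under 0.05). Expression is given as deposited log2 values throughout, in which a difference of 1 is a 2-fold change. As a picture of the low end of that scale, the 95th percentile of 1194 olfactory and vomeronasal receptor genes, which these cells are not known to use, lay between 8.18 and 8.41 on the 6 arrays. Differences of genes near or under this level may be compressed, and probes differ between genes, so levels were compared across arrays and not between genes.

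The start regions of Hox genes with different courses are shown by the sequence before 3 RefSeq start sites (GRCm38.p6), each 250 bases long and written 5′ to 3′ on the gene's strand. They were chosen for what the values below turn on: Hoxb4 had the largest difference between rosettes and EpiSCs, Hoxb1 stood below its EpiSC level on both OPC arrays, and Hoxa2 kept the largest difference from EpiSCs in OPCs. Capitals mark matches to 3 motifs searched on both strands: AGGTCA, the half-site of retinoic acid and other nuclear receptors, TGATNNAT, a Hox-Pbx motif, and TGACAG, a Meis motif. The Hoxb4 window is chr11:96318017-96318266, plus strand, with the receptor half-site on the opposite strand at position -81 from the start. The Hoxb1 window is chr11:96365508-96365757, plus strand, with the Hox-Pbx motif at -162. The Hoxa2 window is chr6:52164832-52165081, minus strand, with the Hox-Pbx motif on the opposite strand at -111 and the Meis motif at -44.
Hoxb4: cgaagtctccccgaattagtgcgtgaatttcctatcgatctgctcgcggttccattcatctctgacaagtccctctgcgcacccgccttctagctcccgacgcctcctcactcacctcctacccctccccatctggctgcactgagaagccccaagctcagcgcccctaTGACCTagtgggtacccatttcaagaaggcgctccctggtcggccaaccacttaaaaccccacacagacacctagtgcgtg
Hoxb1: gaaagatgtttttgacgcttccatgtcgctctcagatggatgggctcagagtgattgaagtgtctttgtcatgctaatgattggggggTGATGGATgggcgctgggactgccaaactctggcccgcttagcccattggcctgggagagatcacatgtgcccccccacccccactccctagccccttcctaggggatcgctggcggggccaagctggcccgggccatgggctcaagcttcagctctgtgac
Hoxa2: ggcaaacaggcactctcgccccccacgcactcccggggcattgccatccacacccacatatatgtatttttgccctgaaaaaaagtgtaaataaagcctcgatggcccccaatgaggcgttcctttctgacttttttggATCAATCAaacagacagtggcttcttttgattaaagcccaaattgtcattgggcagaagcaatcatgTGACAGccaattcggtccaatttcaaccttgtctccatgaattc
The 5 miRNA genes of the mir-10 and mir-196 families in the clusters encode 4 mature 5p forms (RefSeq, GRCm38.p6), shown with the seed (bases 2 to 8) in capitals because Mir10a moved with Hoxb4. miR-10a-5p lies at chr11:96317186-96317208 (plus strand) and miR-10b-5p at chr2:74726074-74726096 (plus strand). miR-196a-5p comes from chr11:96265187-96265208 and chr15:102973365-102973386 (both plus strand) and miR-196b-5p from chr6:52230129-52230150 (minus strand). miR-10a and miR-10b share 1 seed, and miR-196a and miR-196b share another.
miR-10a-5p: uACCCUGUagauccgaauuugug
miR-10b-5p: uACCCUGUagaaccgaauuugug
miR-196a-5p: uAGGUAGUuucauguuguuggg
miR-196b-5p: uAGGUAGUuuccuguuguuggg

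Promoter windows were found for 21 of the 37 genes. AGGTCA stood in those of 6 genes, TGATNNAT in 3, TGACAG in 2 and the TATA motif TATAAA in 3. Among 32851 mouse promoter windows of this length the shares were 14% for AGGTCA, 7.68% for TGATNNAT, 15.9% for TGACAG and 12.4% for TATAAA. A full retinoic acid response element with a spacer of 5 bases (DR5) stood in 0 of the 21 genes' windows and in 0.0883% of all windows. The marked matches in the printed windows do not overlap each other. A match describes letters in this window only, and the known retinoic acid elements of Hox genes lie partly outside such windows.

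The first comparison asks which Hox genes were higher in neural rosettes than in the pluripotent cells they came from. On the rosette array 12 of 37 Hox genes were at least 2-fold higher than on the EpiSC array, against 6.91% of all genes tested, and 0 were at least 2-fold lower, against 3.69%. At least 4-fold higher were 8 of 37, against 1.75% of all genes. The 12 comprised 7 of 9 Hoxb genes, 3 of 10 Hoxa genes, 2 of 9 Hoxc genes and 0 of 9 Hoxd genes. By position they comprised 10 of 14 genes of paralog groups 1 to 5, 2 of 7 of groups 6 to 8 and 0 of 16 of groups 9 to 13. There is 1 array on each side, so these differences have no replicate check and no test. In such bulk samples more cells of a type and more RNA per cell cannot be told apart.

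**Figure D1:**
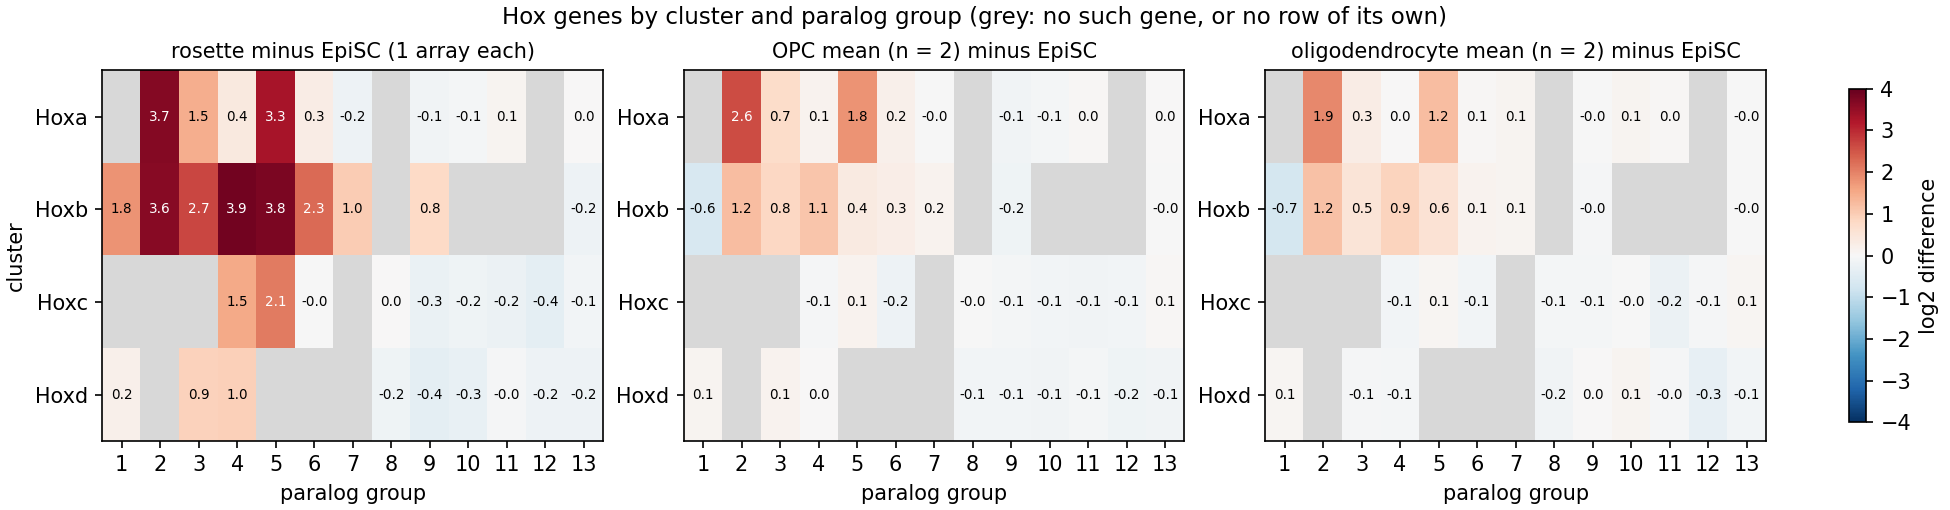
Difference from the EpiSC array (log2, colour and number) of each Hox gene in the rosettes (left, 1 array), OPCs (middle, mean of 2 arrays) and oligodendrocytes (right, mean of 2 arrays), with clusters as rows and paralog groups as columns; grey marks no such gene or no row of its own. In the rosettes the values of at least 1 lie in groups 1 to 7, up to 3.85 for Hoxb4, and groups 9 to 13 range from -0.39 to 0.79, while in OPCs Hoxa2 is highest at 2.60.

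In the Hoxb cluster all 7 genes measured from Hoxb1 to Hoxb7 were at least 2-fold higher. Hoxb1, which marks a single hindbrain segment (rhombomere) in the embryo, stood at 9.68 on the EpiSC array, 11.47 on the rosette array, 8.86 and 9.21 on the OPC arrays and 8.83 and 9.14 on the oligodendrocyte arrays (passage 3, then passage 11). The rosette array was the highest, by 1.79 over EpiSCs, and EpiSCs themselves stood above the receptor range. Hoxb2, a hindbrain gene that acts with Hoxb1 in facial motor neuron formation, stood at 8.85 in EpiSCs, 12.49 in the rosettes, 10.28 and 9.86 in OPCs and 10.33 and 9.72 in oligodendrocytes, in the same order of passages. Its rosette value was 3.64 above EpiSCs, and all 4 later arrays lay between those levels. Hoxb3 stood at 9.44 in EpiSCs, 12.13 in the rosettes, 10.59 and 9.96 in OPCs and 10.23 and 9.72 in oligodendrocytes. It was 2.68 higher in the rosettes, with the later arrays again in between.

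Hoxb4, whose front limit lies at the hindbrain's last segments, had the largest difference of all Hox genes. Its level was 8.34 in EpiSCs, 12.19 in the rosettes, 9.55 and 9.31 in OPCs and 9.48 and 8.99 in oligodendrocytes. That is 3.85 higher in the rosettes than in EpiSCs, or 14.4-fold. Hoxb5 followed, 3.75 higher in the rosettes, at 8.56 in EpiSCs, 12.31 in the rosettes, 9.15 and 8.70 in OPCs and 9.48 and 8.76 in oligodendrocytes. All later arrays lay between EpiSCs and the rosettes.

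Further along the cluster the rosette difference was smaller in the rows of single genes. Hoxb6 was 2.26 higher, at 7.90 in EpiSCs, 10.16 in the rosettes, 8.23 and 8.07 in OPCs and 8.02 and 8.03 in oligodendrocytes. Hoxb7 was 1.03 higher, just inside the 2-fold limit, at 8.50 in EpiSCs, 9.53 in the rosettes, 8.71 and 8.59 in OPCs and 8.51 and 8.72 in oligodendrocytes. Hoxb9 was 0.79 higher, with 9.25 in EpiSCs and 10.04 in the rosettes. Hoxb13, which lies far beyond the rest of the cluster, was at 8.17 and 7.96, within the receptor range. Among the rows of single genes in the cluster the differences were largest at Hoxb4 and Hoxb5 and smaller at both ends. The row shared by Hoxb7 and Hoxb8 is left out of this order and was 3.54 higher in the rosettes, more than Hoxb6 or Hoxb7 alone.

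In the Hoxa cluster 3 genes were high in the rosettes. Hoxa2, the most forward Hox gene of the hindbrain, stood at 7.70 in EpiSCs, 11.37 in the rosettes, 10.49 and 10.11 in OPCs and 9.84 and 9.43 in oligodendrocytes. It was 3.67 higher in the rosettes than in EpiSCs, close to the 3.64 of its paralog Hoxb2, and all later arrays stayed above EpiSCs. Hoxa3 was 1.46 higher, at 7.85 in EpiSCs, 9.31 in the rosettes, 8.58 and 8.60 in OPCs and 8.17 and 8.11 in oligodendrocytes. Hoxa5, which is known for patterning the neck and upper trunk, was 3.30 higher, at 7.52 in EpiSCs, 10.81 in the rosettes, 9.15 and 9.52 in OPCs and 8.62 and 8.88 in oligodendrocytes. Hoxa4 lies between these genes and was 0.39 higher, at 9.60 in EpiSCs, 9.99 in the rosettes, 9.61 and 9.86 in OPCs and 9.52 and 9.71 in oligodendrocytes, so its EpiSC level was already near its rosette level. From Hoxa6 to Hoxa13 the 6 differences ran from -0.21 to 0.29.

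Hoxc4 and Hoxc5 are the first genes of the Hoxc cluster, which has no genes of groups 1 to 3. Hoxc5 was 2.07 higher in the rosettes, at 7.85 in EpiSCs, 9.92 in the rosettes, 7.89 and 8.11 in OPCs and 7.66 and 8.19 in oligodendrocytes. Hoxc4 was 1.50 higher, at 6.52 in EpiSCs, 8.02 in the rosettes, 6.41 and 6.51 in OPCs and 6.43 and 6.36 in oligodendrocytes, and all of its values lay below the receptor percentile of their array. For both genes only the rosette array stood out. The 7 genes from Hoxc6 to Hoxc13 differed by -0.38 to 0.02. In the Hoxd cluster, Hoxd4 (0.96) and Hoxd3 (0.93) were just outside the 2-fold limit. Hoxd4 stood at 7.77 in EpiSCs, 8.73 in the rosettes, 7.61 and 7.93 in OPCs and 7.60 and 7.80 in oligodendrocytes. Hoxd3 stood at 7.84 in EpiSCs, 8.77 in the rosettes, 7.87 and 8.07 in OPCs and 7.69 and 7.87 in oligodendrocytes. Hoxd1 was 0.21 higher, and Hoxd8 to Hoxd13 differed by -0.39 to -0.04.

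**Figure D2:**
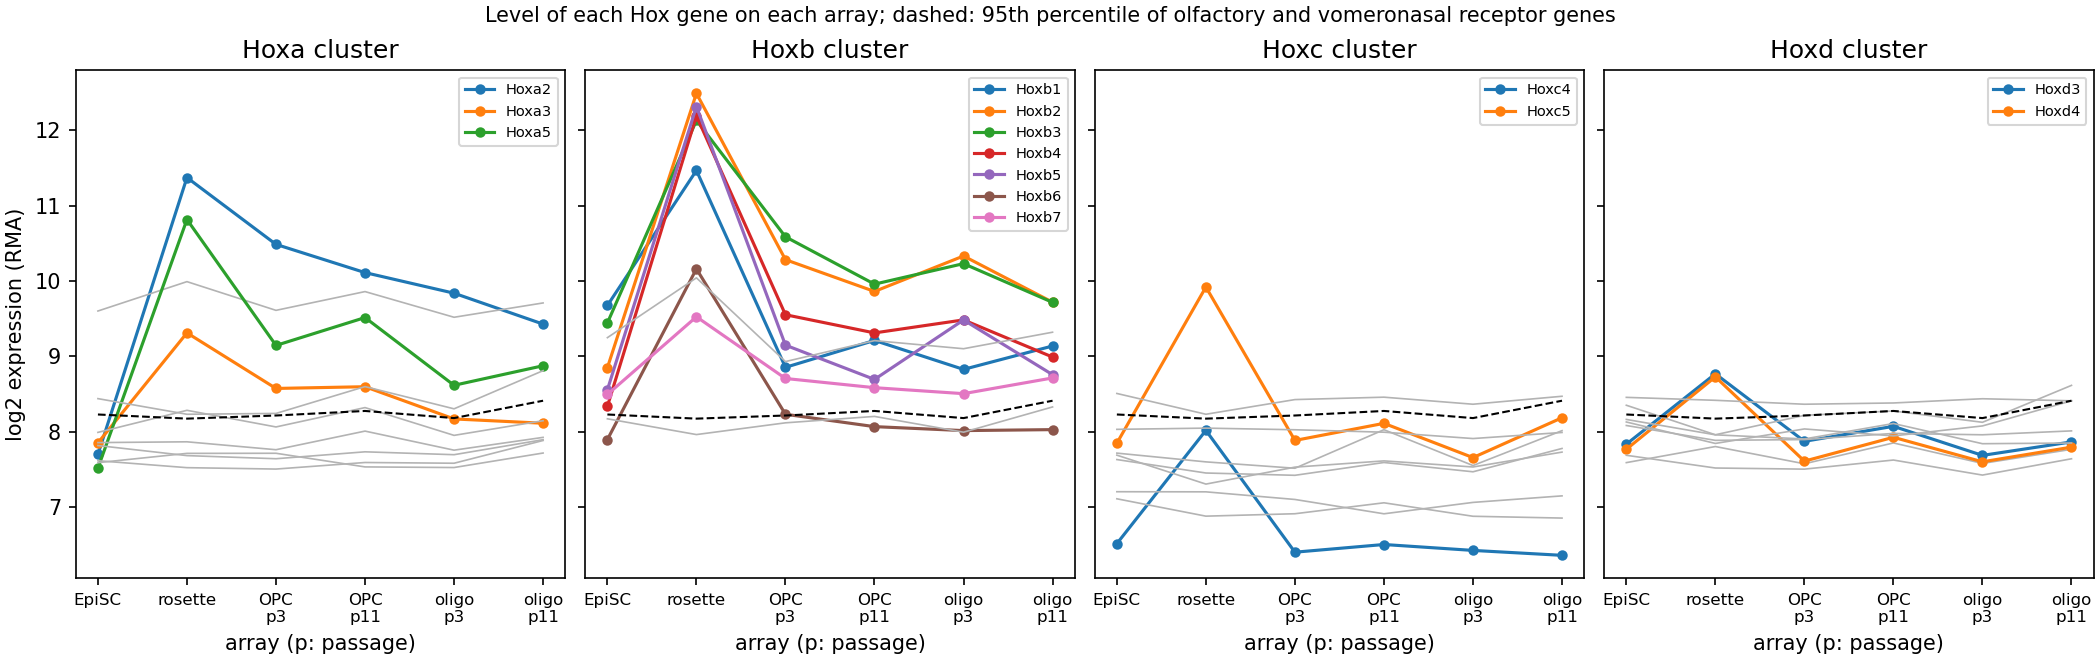
Level (log2) of each Hox gene on the 6 arrays, one panel per cluster; coloured lines are genes at least 2-fold higher in the rosettes than in EpiSCs, with Hoxd3 and Hoxd4 just under that limit, grey lines are the rest, and the dashed line is the receptor percentile of each array. Coloured lines peak on the rosette array; Hoxa2 starts at 7.70, peaks at 11.37 and ends at 9.84 and 9.43, while the grey lines differ by less than 2-fold between rosettes and EpiSCs.

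Over the 14 genes of groups 1 to 5 the median rosette difference was 1.93, over the 7 of groups 6 to 8 it was 0.02 and over the 16 of groups 9 to 13 it was -0.19, beside -0.07 over all genes tested. By cluster the medians were 2.26 for Hoxb, 0.21 for Hoxa, -0.12 for Hoxc and -0.17 for Hoxd. Within groups 1 to 5 the median was 3.64 for the 5 Hoxb genes and 2.38 for the 4 Hoxa genes. The rank correlation of the difference with paralog group number was -0.75 over the 37 genes. It was -0.73, -0.62, -0.75 and -0.60 within Hoxa (10 genes), Hoxb, Hoxc and Hoxd (9 genes each). These describe 1 pair of arrays, with genes that share both arrays.

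Profiles over the 6 arrays were compared by Pearson correlation, as a description. The 5 neighbour pairs from Hoxb2 to Hoxb7 had r of 0.97 to 0.98, and Hoxd3 with Hoxd4 had 0.98. Hoxb1 with Hoxb2 had 0.72. Over 33 neighbour pairs the median r was 0.68, and over 38 paralog pairs it was 0.74. Paralog pairs differed widely, and Hoxb9 with Hoxc9 had -0.72. Some RefSeq gene models overlap: Hoxb3 overlaps Hoxb4 and Mir10a, Hoxa3 overlaps Hoxa4, Hoxa5 and Hoxa6, Hoxd3 overlaps Hoxd4, and Hoxd10 overlaps Hoxd11. Values of such pairs may not be independent and are uncertain to that extent.

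The next comparison asks how OPCs differed from the rosettes they were grown from. In OPCs 8 of 37 Hox genes fell (limma, adjusted p under 0.05 over all genes), against 1.87% of all genes, and 0 rose, against 1.26%. At unadjusted p under 0.05 there were 15 lower (9.75% of all genes) and 0 higher (5.63%). The 8 that fell were Hoxa5, Hoxb1, Hoxb2, Hoxb4, Hoxb5, Hoxb6, Hoxc4 and Hoxc5. They comprised 5 of 9 Hoxb, 2 of 9 Hoxc, 1 of 10 Hoxa and 0 of 9 Hoxd genes, and 7 of 14 genes of groups 1 to 5, 1 of 7 of groups 6 to 8 and 0 of 16 of groups 9 to 13. Both comparisons use the same single rosette array, so a value that is high on it by chance raises the first difference and lowers this one.

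Hoxb5 had the largest fall, -3.39 ± 0.36 (SE, limma adjusted p 0.0156), 10.5-fold lower in OPCs. The values were -2.76 ± 0.26 for Hoxb4 (adjusted p 0.0114), -2.43 ± 0.24 for Hoxb1 (adjusted p 0.013) and -2.42 ± 0.32 for Hoxb2 (adjusted p 0.0277). Hoxb6 fell by 2.01 (SE 0.17, adjusted p 0.00916) to the edge of the receptor range. Both OPC arrays lay far below the rosette array for each of these genes. Hoxb3 differed by -1.86 ± 0.34 and missed the threshold with adjusted p 0.0632.

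Outside Hoxb, 3 genes fell. Hoxc5 was at -1.92 ± 0.27 (limma adjusted p 0.0314), Hoxc4 at -1.56 ± 0.17 (adjusted p 0.0159) and Hoxa5 at -1.48 ± 0.23 (adjusted p 0.043). Hoxa2 differed by -1.07 ± 0.26 (adjusted p 0.125) and Hoxa3 by -0.73 ± 0.16 (adjusted p 0.101), so neither passed. Hoxd3 (-0.80 ± 0.19, adjusted p 0.117) and Hoxd4 (-0.96 ± 0.21, adjusted p 0.0976) did not pass either. The median over groups 1 to 5 was -1.52 and over groups 9 to 13 it was 0.05, beside 0.02 over all genes.

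**Figure D3:**
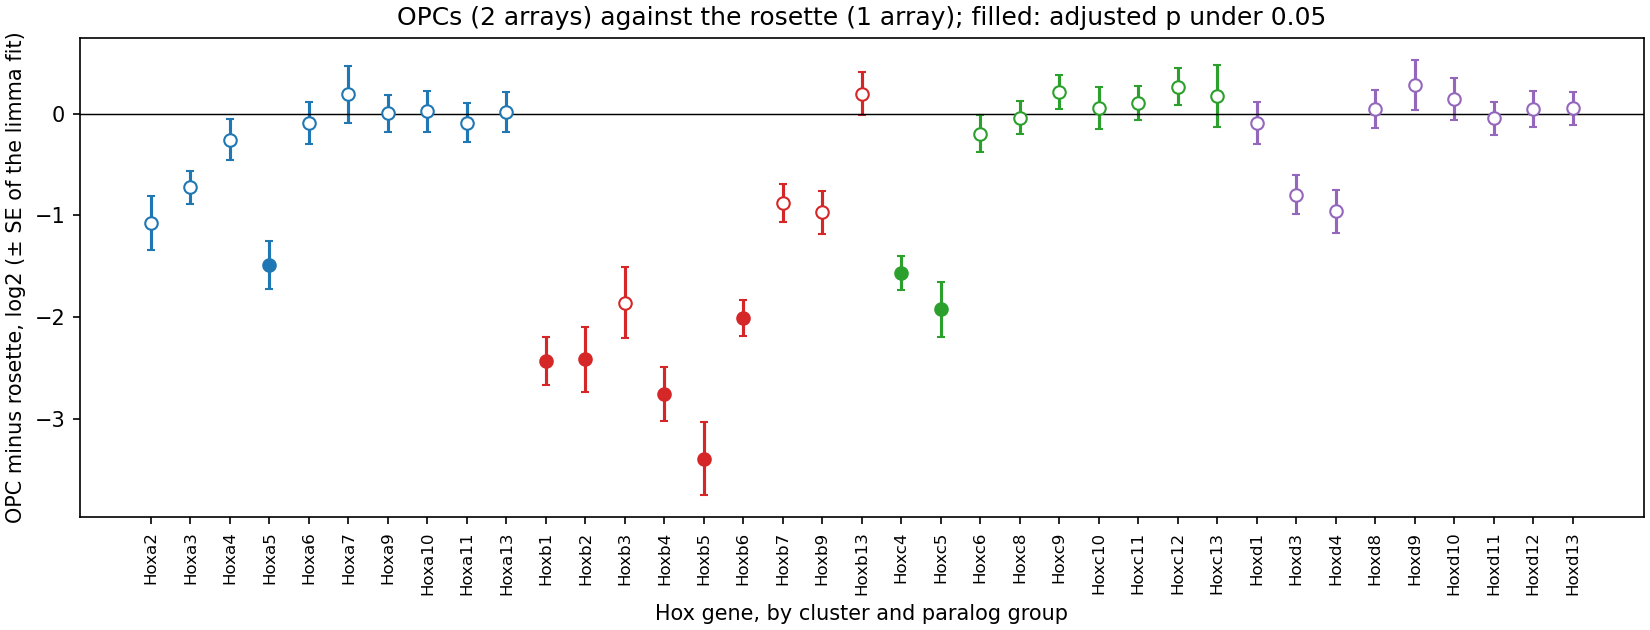
OPC minus rosette difference (log2) of each Hox gene with the standard error of the limma fit, ordered by cluster and paralog group; filled points passed adjusted p under 0.05. The 8 filled points run from -1.48 for Hoxa5 to -3.39 for Hoxb5, and genes of groups 10 to 13 lie near 0.

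Single arrays moved the count, and so did the passage block, over all genes as well as over Hox genes. Over all genes 624 passed in the main fit, 1206 with the block and 2897 with only the groups compared. With 1 oligodendrocyte array left out, the fit is the same as with only the groups compared. The spread then comes from the 2 OPC arrays alone, so those 2 fits are not separate checks. Without the passage 3 OPC array 5 Hox genes fell (Hoxb1, Hoxb2, Hoxb4, Hoxb5 and Hoxb6), and without the passage 11 OPC array 3 fell (Hoxb1, Hoxb4 and Hoxb5). Without the passage 3 or the passage 11 oligodendrocyte array 15 fell, and with passage as a replicate block 12 fell. Some markers of other neural cells differed in the same direction, and others rose in OPCs. Of 5 astrocyte markers 2 rose (limma, against 1.26% of all genes), Slc1a3 (1.60) and Aldoc (2.80). Of 5 ventral neural tube markers 1 rose, Olig2 (3.39), beside the same share of all genes. The 5 neuroepithelium markers averaged 9.09 in EpiSCs, 11.15 in the rosettes and 9.84 and 9.80 in OPCs, with 4 of 5 at least 2-fold higher in the rosettes and all 5 above the receptor percentile there. In OPCs 3 of these 5 fell (limma, against 1.87% of all genes): Pax6 (-2.70), Dach1 (-2.49) and Zbtb16 (-1.59). Sox1 (-0.13) and Nes (0.24) did not. The 5 neuron markers averaged 7.91 in EpiSCs, 11.94 in the rosettes and 9.75 and 9.77 in OPCs, with all 5 above the receptor percentile in the rosettes, and 2 of 5 fell. The 4 motor neuron markers measured averaged 8.44, 9.18, 7.90 and 8.08 on those arrays, with 3 of 4 above the receptor percentile in the rosettes, and Isl1 and Slc18a3 fell, while Mnx1 stayed under the percentile on every array. Their part in the Hox differences was not tested. The 4 mesoderm markers averaged 8.97 in EpiSCs and 8.23 in the rosettes.

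OPCs were then set against EpiSCs, the cells from which the culture began. Hoxa2 was 2.60 ± 0.26 higher in OPCs than in EpiSCs (limma adjusted p 0.00811) and Hoxa5 was 1.81 ± 0.23 higher (adjusted p 0.0155). These were the 2 of 37 that passed, against 4.07% of all genes, a share close to the background; 0 were lower, against 2.93%. At unadjusted p under 0.05 there were 5 higher (10.2% of all genes) and 1 lower (10.4%), which was Hoxb1. The OPC values of both genes, from 9.15 to 10.49, stood well over EpiSCs at 7.52 and 7.70. With passage as a replicate block 6 passed, with Hoxa3 (adjusted p 0.0469), Hoxb2 (0.0191), Hoxb3 (0.0376) and Hoxb4 (0.0262) added. Without the passage 11 OPC array only Hoxa2 passed, and without either oligodendrocyte array 7 did, Hoxb1 among them as lower.

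The other genes that were high in the rosettes did not pass. Hoxb2 was 1.22 ± 0.32 above EpiSCs (limma adjusted p 0.0992), Hoxb4 1.09 ± 0.26 (0.0781), Hoxb3 0.83 ± 0.34 (0.269) and Hoxa3 0.73 ± 0.16 (0.0657). Hoxb5 was at 0.36 ± 0.36 and Hoxb6 at 0.25 ± 0.17. Hoxc5 at 0.15 ± 0.27 and Hoxc4 at -0.06 ± 0.17 were back near their EpiSC values. Hoxb1 was at -0.64 ± 0.24 (adjusted p 0.218), with both OPC arrays below EpiSCs. Over groups 1 to 5 the median difference from EpiSCs was 1.27 for Hoxa, 0.83 for Hoxb, 0.04 for Hoxc and 0.12 for Hoxd. The contrast between clusters was not tested.

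Paralogs can be set side by side. Hoxa2 and Hoxb2 were 3.67 and 3.64 higher in the rosettes, and then 2.60 and 1.22 above EpiSCs in OPCs. Likewise Hoxa5 and Hoxb5 were 3.30 and 3.75 higher in the rosettes and then 1.81 and 0.36 above EpiSCs. The order in OPCs was the reverse for other pairs. Hoxa3 and Hoxb3 were 1.46 and 2.68 higher in the rosettes and then 0.73 and 0.83 above EpiSCs. Hoxa4 and Hoxb4 were 0.39 and 3.85 higher and then 0.13 and 1.09 above. On all 4 OPC and oligodendrocyte arrays 12 of 37 Hox genes stood above the receptor percentile, against 61.5% of all genes, on the rosette array 19 did, against 66.8%, and on the EpiSC array 12 did, against 67.7%. The 12 were Hoxa2, Hoxa4, Hoxa5, Hoxa7, Hoxb1 to Hoxb5, Hoxb7, Hoxb9 and Hoxc9. Of these, Hoxa7 and Hoxc9 stood within 8.23 to 8.81 on every array, EpiSCs included. Hoxa7 was at 8.44 in EpiSCs, 8.23 in the rosettes, 8.24 and 8.60 in OPCs and 8.31 and 8.81 in oligodendrocytes. Its passage 11 values were 0.36 higher than at passage 3 in OPCs and 0.51 higher in oligodendrocytes. Hoxc9 was at 8.51 in EpiSCs, 8.23 in the rosettes, 8.43 and 8.46 in OPCs and 8.37 and 8.47 in oligodendrocytes.

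Between oligodendrocytes and the OPCs they were made from, no Hox gene passed the test. By limma 0 of 37 rose, against 0.396% of all genes, and 0 fell, against 0.0502%. At unadjusted p under 0.05 there were 3 lower (6.81% of all genes) and 0 higher (5.52%). The 3 were the Hoxa genes that were at least 2-fold higher in the rosettes: Hoxa2 at -0.66 ± 0.22 (limma adjusted p 0.319), Hoxa5 at -0.58 ± 0.19 (0.326) and Hoxa3 at -0.44 ± 0.13 (0.284). For each of them both oligodendrocyte arrays lay below both OPC arrays. That held for 8 of 37 Hox genes, against 21.1% of all genes, and the reverse for 2, against 19%. Lower at both passages within the pair were 15 of 37, against 33%. Without the passage 3 oligodendrocyte array Hoxa2 passed, at -0.87 (adjusted p 0.0104). The genes Hoxb1 to Hoxb7 differed by -0.30 to 0.20.

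Passage 11 was compared with passage 3 within both cell types. No Hox gene passed (limma, 0 of 37 in either direction, against 0% of all genes), and at unadjusted p under 0.05 there were 10, against 13.9% of all genes, 5 of them higher (5.67%) and 5 lower (8.22%). Hoxa2, Hoxb2, Hoxb3, Hoxb4 and Hoxb5 were the 5 Hox genes with lower values at passage 11 in both OPCs and oligodendrocytes, a pattern of 28.5% of all genes. Higher in both were 22, against 40.1%. Hoxb2 to Hoxb5 were at -0.63 to -0.24 in OPCs and at -0.73 to -0.49 in oligodendrocytes, and Hoxa2 at -0.37 and -0.41. The 5 that were higher at unadjusted p under 0.05 (limma) were higher in both OPCs and oligodendrocytes. They were Hoxc13 (0.51 and 0.46), Hoxa7 (0.36 and 0.51), Hoxb1 (0.36 and 0.31), Hoxa5 (0.37 and 0.26) and Hoxc5 (0.23 and 0.53). Each passage and cell type had 1 array.

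**Figure D4:**
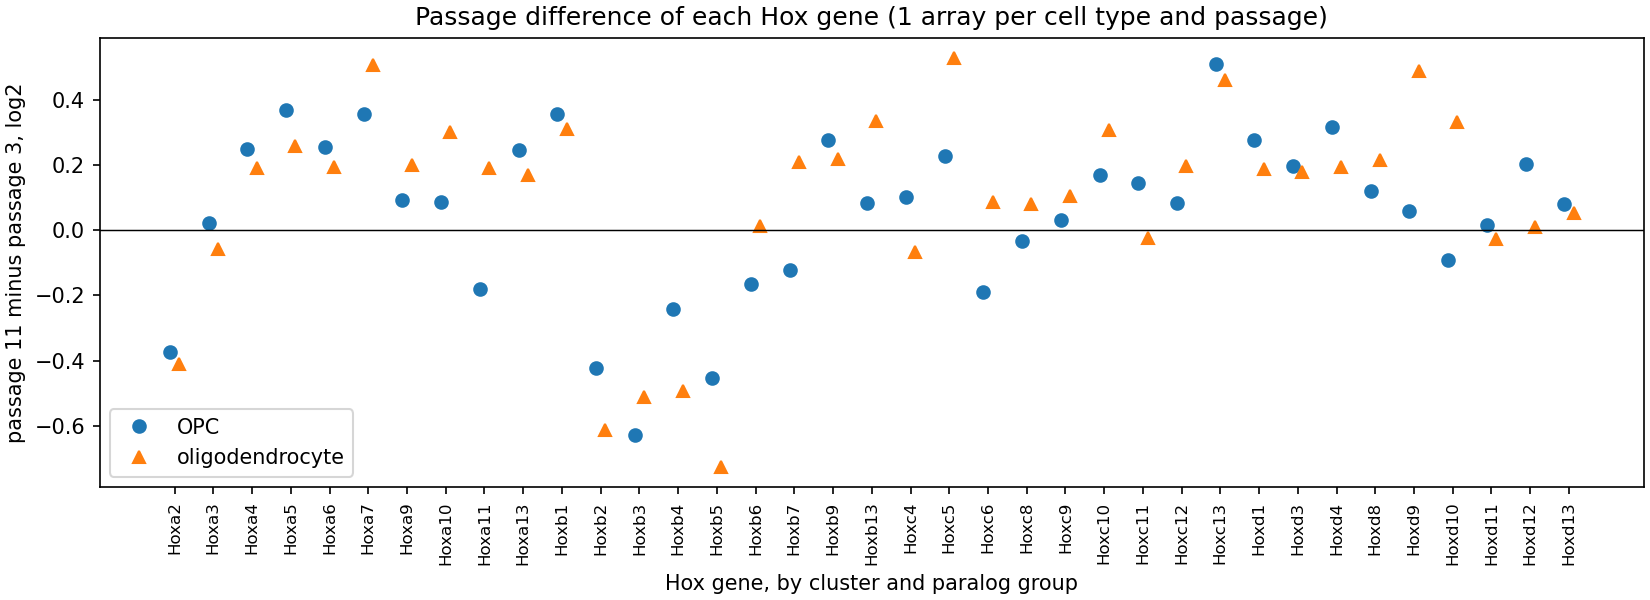
Passage 11 minus passage 3 difference (log2) of each Hox gene in OPCs (circles) and oligodendrocytes (triangles), 1 array per cell type and passage. Hoxa2 and Hoxb2 to Hoxb5 lie below 0 in both, and most others lie above, Hoxc13 by 0.51 in OPCs and 0.46 in oligodendrocytes.

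Other markers differed between the passages too. The 5 astrocyte markers averaged 10.86 at passage 3 and 10.12 at passage 11 in OPCs, and 11.28 and 10.33 in oligodendrocytes. Above the receptor percentile were 3 to 5 of 5. In OPCs Aldh1l1 (-2.60), Aldoc (-0.63) and Aqp4 (-0.43) were lower at passage 11, while Slc1a3 (-0.02) and Gfap were level. In oligodendrocytes Gfap (-1.82), Aqp4 (-1.43), Aldh1l1 (-1.35) and Slc1a3 (-0.41) were lower and Aldoc was higher (0.28). The 5 fibroblast and smooth muscle markers averaged 9.74 and 9.25 in OPCs and 10.57 and 9.36 in oligodendrocytes, with 4 of 5 above the percentile and Lum under it on every array. Acta2 and Tagln carried that difference, at -1.15 and -1.60 in OPCs and -1.93 and -3.85 in oligodendrocytes, while Col1a1, Col1a2 and Lum differed by -0.19 to 0.22. Their part in the passage values of the Hox genes was not tested.

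RNA genes inside the clusters were listed as well. Mir10a, between Hoxb4 and Hoxb5, encodes a miRNA and stood at 4.60 in EpiSCs, 7.62 in the rosettes, 4.71 and 4.87 in OPCs and 4.85 and 4.84 in oligodendrocytes. It was 3.02 higher in the rosettes than in EpiSCs and fell by 2.83 in OPCs (SE 0.17, limma adjusted p 0.00583). Its model overlaps that of Hoxb3, so signal of its row cannot be told apart from Hoxb3 transcript, and mature miRNA was not measured separately. Mir10b, of the same seed and inside the Hoxd4 model, was 0.87 higher, at 4.72 in EpiSCs and 5.60 in the rosettes. The antisense gene Hoxaas2, which overlaps Hoxa3, was 3.22 higher in the rosettes and fell by 2.38 in OPCs (SE 0.19, adjusted p 0.00796). Of 10 RNA genes measured, of 13 listed, Mir10a and Hoxaas2 were the 2 at least 2-fold higher in the rosettes (6.91% of all genes). They were also the 2 that fell in OPCs (1.87%). The mir-196 genes, of the more 5′ part of the clusters, differed by -0.32 to -0.19. The row shared by Hoxb7 and Hoxb8 was at 8.53 in EpiSCs, 12.06 in the rosettes, 9.19 and 8.35 in OPCs and 8.83 and 8.34 in oligodendrocytes, 3.54 higher in the rosettes, while the row of Hoxb7 alone was 1.03 higher.

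**Figure D5:**
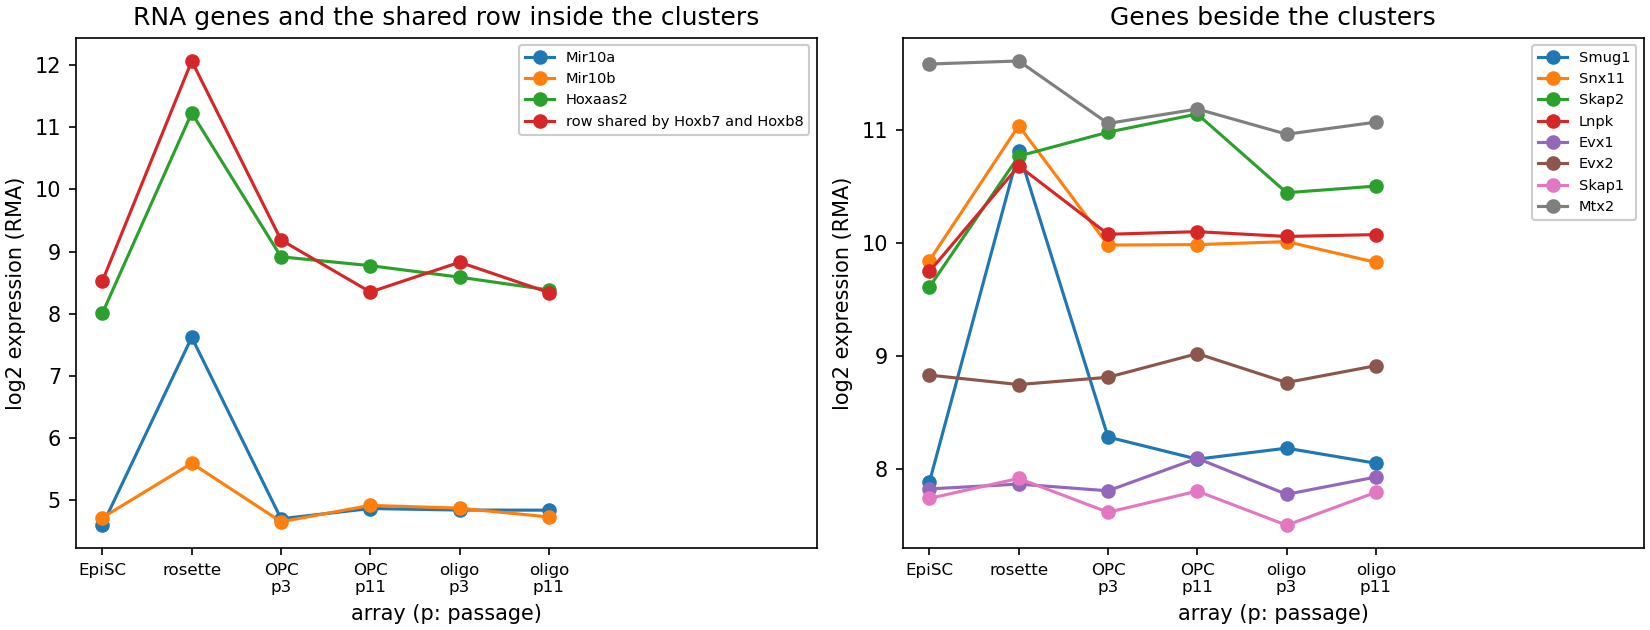
Level (log2) on the 6 arrays of RNA genes inside the Hox clusters with the row shared by Hoxb7 and Hoxb8 (left) and of genes beside the clusters (right). Mir10a, Hoxaas2, the shared row and Smug1 peak on the rosette array, while Evx1, Evx2 and Skap1 are nearly flat.

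Genes beside the clusters were counted in the same way. Of 21 measured, of 24 listed, 3 were at least 2-fold higher in the rosettes, against 6.91% of all genes, and 2 fell in OPCs, against 1.87%. Smug1, a DNA repair glycosylase gene next to Hoxc4, stood at 7.88 in EpiSCs, 10.81 in the rosettes, 8.28 and 8.09 in OPCs and 8.18 and 8.05 in oligodendrocytes. It was 2.92 higher in the rosettes and fell by 2.63 in OPCs (SE 0.19, limma adjusted p 0.00616). Snx11, beyond Hoxb1 and Skap1, was 1.19 higher and fell by 1.05 (adjusted p 0.0487). Skap1, which lies next to Hoxb1, was 0.18 higher. Skap2, next to the 3′ end of Hoxa, was 1.16 higher in the rosettes and 1.45 above EpiSCs in OPCs (adjusted p 0.0127). At the 5′ ends Evx1 (0.04) and Evx2 (-0.08), homeobox genes that lie beside Hoxa13 and Hoxd13, were level.

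Hox proteins bind DNA with Pbx, Meis and Prep partners. Of 8 cofactor genes measured, of 9 listed, 4 were at least 2-fold higher in the rosettes, against 6.91% of all genes. These were Meis1 (3.63), Meis2 (3.35), Pknox2 (1.77) and Meis3 (1.59). In OPCs 2 fell against the rosettes (1.87% of all genes), Pbx2 at -1.51 (limma adjusted p 0.0328) and Meis3 at -1.30 (0.0231). Meis1 stayed 2.66 above EpiSCs (0.0239) and Pknox2 1.98 above (0.0079). Genes that act upstream of Hox genes were listed too, 17 of 19 measured. In the rosettes 5 were at least 2-fold higher (6.91% of all genes) and 4 at least 2-fold lower (3.69%). The 4 were Egr2 (-1.11), Rarg (-1.11), Fgf8 (-1.10) and Cyp26a1 (-1.01). Against the rosettes, 5 fell in OPCs (1.87%). Rarb, a retinoic acid receptor gene that is itself a retinoic acid target, stood at 8.35 in EpiSCs, 13.16 in the rosettes, 8.10 and 8.31 in OPCs and 8.82 and 8.94 in oligodendrocytes, and was at -4.95 in OPCs against the rosettes (limma adjusted p 0.00361). Crabp2, a retinoic acid binding protein gene, was 3.49 higher in the rosettes and at -5.19 in OPCs against them (0.00361). The others that fell were Cyp26a1 (-2.03, 0.00894) and Cyp26b1 (-1.61, 0.0136), whose enzymes degrade retinoic acid, and the receptor gene Rara (-1.65, 0.0483). Against EpiSCs, OPCs were lower in Cyp26a1 (-3.04, 0.00235) and Crabp2 (-1.69, 0.018). Gdf11, a known inducer of the 5′ genes, was 2.12 higher in the rosettes and 1.63 above EpiSCs in OPCs (0.0129). The caudal genes Cdx1, Cdx2 and Cdx4 differed by -0.23, -0.08 and -0.30 between rosettes and EpiSCs, and 0 of the 3 passed the test in OPCs.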

How the data were processed

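RNA of 6 cultures was measured on Affymetrix whole-transcript arrays from 150 ng of total RNA. The authors deposited log2 values; the submitters' processing notes name RMA and Affymetrix Expression Console, with the version not given in the sources used here. Of 35556 rows, 21789 carried 1 gene symbol; the row of highest mean was kept per gene, which left 19938 genes. Hox genes and lists were chosen with earlier results of these data known.

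Two-sided tests used lmFit and eBayes (limma 3.58.1, R 4.3.3) in 1 fit of all 6 arrays in 4 groups (2 residual degrees of freedom); the lone EpiSC and rosette arrays were assumed to vary like the others. Passage was tested on 4 arrays with cell type as covariate (1 residual degree of freedom, the disagreement between the cell types). P-values were adjusted by Benjamini-Hochberg over all 19938 genes, with 0.05 as threshold. Rosettes and EpiSCs, with 1 array each, were compared by size. Named Hox genes were those at least 2-fold apart there, called, or above the receptor percentile on all 4 later arrays; others are given mostly by range. Of the lists of cofactors, upstream, Polycomb and trithorax, rostral, RNA and neighbouring genes, members called or at least 4-fold apart were named, at most 4 a list and comparison by size; Cyp26b1 and the fifth Polycomb gene were added to complete their counts. Mir10b, the mir-196 genes, Skap1, Evx1, Evx2, Egr2, Rarg, Fgf8 and the Cdx genes fall outside this rule and were named after their values were seen.

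Oligodendrocytes of a passage came from OPCs of that passage, per the labels, so passage pairs the arrays. Deviations from the group means correlated at 0.50. The main fit did not use this pairing, and the passage block did. Neighbours and overlaps come from the RefSeq table (GRCm38.p6), and the array files name no build. The test was checked on simulated data. Alternatives were centring, leaving out dim genes, the mean of a gene's rows, trend and robust eBayes, only the groups compared, the passage block and each array left out.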

Additional observations from a re-analysis of the deposited data

Results flagged for a closer look

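Signals outside the 37 Hox rows stood above the EpiSC control in 3 places, with 1 array on each side. The row shared by Hoxb7 and Hoxb8 was 3.54 higher in the rosettes than in EpiSCs. Mir10a was 3.02 higher. The antisense gene Hoxaas2 was 3.22 higher.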

How the results depend on the processing

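No called Hox gene changed direction under the alternatives run. Against the 8 Hox genes that fell in OPCs from the rosettes, 4 fell with dim genes left out (9 Hox genes then entered the test), 15 with only the groups compared, and 3 to 15 with 1 array left out. With passage as a replicate block, 12 fell, among them the same 8. Leaving out either oligodendrocyte array is the same fit as only the groups compared, here and for OPCs against EpiSCs. Of the comparison of OPCs with EpiSCs, 2 Hox genes passed; the replicate block gave 6, only the groups compared gave 7 and leaving out 1 array gave 1 to 7. In oligodendrocytes against OPCs 0 passed, and leaving out 1 array gave 0 to 1. The replicate block changed no other count past 1.5 times. Between passages 0 passed under every alternative that was run, and leaving out an array was not run there because it leaves no residual degrees of freedom. The 12 Hox genes at least 2-fold higher in the rosettes became 11 with arrays centred on their median. Except where an alternative tests fewer genes or arrays, the cause was not tested. Small differences that passed no test changed sign. With 1 array left out, Hoxa7 in OPCs against EpiSCs ran from -0.20 to 0.16. In oligodendrocytes against OPCs the ranges were -0.25 to 0.0032 for Hoxa4, -0.12 to 0.39 for Hoxa7, -0.23 to 0.13 for Hoxb1, -0.35 to 0.26 for Hoxb2, -0.61 to 0.015 for Hoxb3, -0.44 to 0.052 for Hoxb4, -0.16 to 0.56 for Hoxb5, -0.14 to 0.068 for Hoxb7, -0.34 to 0.19 for Hoxc5 and -0.078 to 0.028 for Hoxc9. With arrays centred on their median, Hoxa3 between passages was at 0.0084.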

Other observations

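Polycomb and trithorax genes, whose products keep Hox clusters silent or active, were measured for 18 of 19 listed. Bmi1, a Polycomb repressive complex 1 gene, was 1.27 higher in the rosettes than in EpiSCs. It was the 1 of 18 at least 2-fold higher, against 6.91% of all genes. Phc1 (-1.52) and Cbx7 (-1.08), of the same complex, were the 2 at least 2-fold lower (3.69%). Ezh1, a histone H3 methyltransferase gene, fell by 1.16 in OPCs against the rosettes (limma adjusted p 0.0331). It was the 1 of 18 to pass there, beside 1.87% of all genes lower and 1.26% higher. Against EpiSCs, OPCs had 1 of 18 higher (4.07% of all genes), Bmi1 at 1.86 (limma adjusted p 0.0454). Lower were 4 (2.93%): Phc1, Cbx7, Ezh1 and Jarid2.

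Genes of regions in front of the Hox domain were listed as well, with 11 of 12 measured. Otx2, a forebrain and midbrain gene that EpiSCs also express, was at -2.46 in the rosettes against EpiSCs and fell by 1.75 in OPCs against the rosettes (limma adjusted p 0.0202). No other gene of the 11 was 2-fold apart between rosettes and EpiSCs, and no other passed in OPCs against the rosettes. The midbrain and hindbrain gene En2 stood at 7.67 in EpiSCs, 8.22 in the rosettes, 9.12 and 9.22 in OPCs and 9.83 and 10.60 in oligodendrocytes. It did not pass the test in OPCs against the rosettes (adjusted p 0.264). En2 was singled out after its values were seen.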
